A study of Mus musculus with 12 samples.

Results

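The genes described here are the heat shock proteins and other chaperones of the mouse, chosen by symbol from the probe-to-gene table: the HSP70, HSP110, HSP90 and small HSP families, the mitochondrial chaperonin, the DNAJ (HSP40) proteins, the CCT ring, prefoldin, the BAG proteins and 4 co-chaperones. They came to 63 genes on 124 probes, out of 8708 genes with a single symbol. The choice used symbols and no measured value. The largest families were DNAJC with 15 genes, HSP70 with 9, CCT with 8, DNAJB with 7 and BAG with 6. The others held 4 co-chaperones (Stip1, Ahsa1, Hspbp1 and Hspbap1), 4 prefoldin subunits, 3 DNAJA proteins, Hsp90aa1 and Hsp90b1 of HSP90, Hspd1 and Hspe1 of the mitochondrial chaperonin, Hspb1 and Hspb8 of the small HSPs, and Hsph1 of HSP110. The classical heat-inducible genes Hspa1a and Hspa1b and the constitutive cytosolic Hsp90ab1 were not analysed here, since no probe named them alone.

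The study hybridised 12 cDNA arrays with 2 colour channels, 2 arrays in each of 6 groups, and every value is the log2 ratio of a sample to a C57BL/6 (B6) sample of the same tissue. The groups were T cells from the spleen of 3 strains (NOD.H2h4, B6.NODIdd1,5 and NOD), kidney cells of B6.NODIdd1,5, and T cells from the spleen of bone marrow recipients of 2 kinds. NOD is the non-obese diabetic strain, and NOD.H2h4 is, by its name, NOD with another haplotype at the major histocompatibility complex (MHC). B6.NODIdd1,5, called congenic below, is by its name B6 with NOD alleles at the diabetes loci Idd1 and Idd5. NODtoB6 mice were B6 hosts given NOD marrow, and B6toNOD mice were NOD hosts given B6 marrow. The labels mention no heating, age, sex, cell sort or conditioning of the hosts. A ratio gives no level, so the labelled tissues could not be checked against their markers. The labels put the sample in the red channel on the 8 strain arrays. With no swap of the dyes there, a dye bias of a gene cannot be told apart from its difference from B6. For the 4 arrays of marrow recipients no label names the dyes, so their direction was taken to be the same, as an assumption. Nothing states that the 2 arrays of a group came from separate mice, so the p-values measure only the spread between these arrays, and the spread among B6 mice is not in them. In RNA of whole cell samples, fewer cells of a type and less RNA per cell cannot be told apart.

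Chaperones bind unfolded or partly folded proteins. HSP70 proteins do so in cycles of ATP binding that DNAJ proteins start and nucleotide exchange factors (HSP110, BAG and HSPBP1 proteins) end, and Stip1, also called HOP, hands clients on from HSP70 to HSP90. The CCT ring folds actin and tubulin, which prefoldin delivers to it. Heat shock factor 1 induces the heat-shock genes from heat shock elements in their promoters, while the unfolded protein response of the endoplasmic reticulum (ER) induces the ER chaperones from its own elements. Activated T cells are known to raise many of these genes as protein synthesis increases.

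The promoters of Hsph1, Dnajb6 and Hspe1 are shown because each holds a heat shock element of 3 units, and that of Hspa5 because it holds an ER stress element. The sequences are RefSeq's for GRCm38.p6, from 250 bases before to 50 after the start site, read 5′ to 3′ on the gene's strand. Capitals mark the heat shock elements in the first 3 windows and the ER stress element in the fourth. Hsph1 encodes the HSP110 nucleotide exchange factor, Dnajb6 a DNAJ protein that suppresses aggregation, Hspe1 the mitochondrial co-chaperonin HSP10, and Hspa5 the ER chaperone BiP.
Hsph1, chr5:149636266-149636565, minus strand: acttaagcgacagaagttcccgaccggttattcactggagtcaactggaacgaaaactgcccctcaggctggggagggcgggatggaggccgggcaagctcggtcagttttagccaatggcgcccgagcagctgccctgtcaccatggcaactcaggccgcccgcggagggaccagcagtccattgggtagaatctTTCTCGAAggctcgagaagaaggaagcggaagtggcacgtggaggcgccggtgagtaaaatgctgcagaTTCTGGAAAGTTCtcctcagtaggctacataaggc
Dnajb6, chr5:29735648-29735947, plus strand: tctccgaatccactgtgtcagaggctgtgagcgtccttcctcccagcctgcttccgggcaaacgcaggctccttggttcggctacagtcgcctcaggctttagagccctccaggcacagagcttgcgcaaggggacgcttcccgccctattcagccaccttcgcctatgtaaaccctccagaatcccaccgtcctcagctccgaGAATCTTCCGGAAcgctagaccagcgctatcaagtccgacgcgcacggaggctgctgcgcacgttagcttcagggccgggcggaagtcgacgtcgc
Hspe1, chr1:55087898-55088197, plus strand: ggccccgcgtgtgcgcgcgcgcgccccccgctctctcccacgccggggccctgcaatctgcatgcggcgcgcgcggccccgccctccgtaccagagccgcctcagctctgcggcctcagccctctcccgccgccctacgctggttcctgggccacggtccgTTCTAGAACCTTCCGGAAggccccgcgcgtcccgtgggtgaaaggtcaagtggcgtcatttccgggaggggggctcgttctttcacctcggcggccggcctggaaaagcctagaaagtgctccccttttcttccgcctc
Hspa5, chr2:34771840-34772139, plus strand: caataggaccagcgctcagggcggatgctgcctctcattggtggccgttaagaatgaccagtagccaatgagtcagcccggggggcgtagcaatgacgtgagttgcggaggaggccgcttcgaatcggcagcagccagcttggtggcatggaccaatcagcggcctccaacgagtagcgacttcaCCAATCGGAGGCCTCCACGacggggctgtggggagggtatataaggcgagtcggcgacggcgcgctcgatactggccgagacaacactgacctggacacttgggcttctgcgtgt

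Windows were at hand for 52 of the 63 genes, 67 windows in all. A heat shock element of 2 units was searched as GAANNTTC or TTCNNGAA, and one of 3 units as GAANNTTCNNGAA or TTCNNGAANNTTC, on both strands; each 3-unit match also holds 2-unit matches. The 2-unit element stood in 13 of the 52 genes (25.0%), against 17.0% of all 27025 genes with a window. The 3-unit element stood in 4 of them, Hsph1, Dnajb6, Hspd1 and Hspe1 (7.69%), against 0.662% of all genes. Hspd1 and Hspe1, which encode HSP60 and HSP10, are read from opposite strands and their windows share 285 bases, so they hold the same element. The ER stress element, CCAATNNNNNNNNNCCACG on either strand, stood in Hspa5, Hsp90b1 and Dnajc3, 3 of the 52 (5.77%), against 0.137% of all genes. A match is a run of letters and says nothing of which factor was bound in these cells.

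A gene passed where its Benjamini-Hochberg adjusted p in limma, over all features tested, was at most 0.05, and rose or fell is said of such genes alone. Features are the genes with a single symbol and the probes without one, and each array was centred on its median, so every value is relative to the middle of its array. Before centring the medians lay between -0.878 (the second B6toNOD array) and -0.009 (the first NOD array), so a value of 0 here is below 0 as deposited, most of all in NOD.H2h4, B6toNOD and kidney. The spread of the arrays also differed, with a median absolute deviation between 0.195 on the first NOD array and 0.614 on the first B6toNOD array. Of the 63 genes, 48 passed in at least 1 group; of the 53 with a value in all 6 groups 40 did (75.5%), against 80.8% of the 12451 features with values in all 6. The 15 genes that passed in no comparison with B6 were Bag1, Bag2, Bag4, Dnajb2, Dnajb4, Dnajc9, Dnajc10, Dnajc11, Dnajc13, Dnajc17, Dnajc30, Hsp90b1, Hspa14, Hspbp1 and Pfdn4. Of the rest, 13 passed in 1 group, 19 in 2, 10 in 3 and 6 in 4 or more, and 17 genes passed on both sides of B6 in different groups. Over the 10 comparisons made there were 179 calls, of which 95 were lost without 1 or another array, and 55 held under every alternative tried on single genes. Those alternatives kept the direction of the arrays and did not include fitting each probe alone, and "every alternative" is said in that sense below. As deposited, 111 of the 179 calls were kept, 49 were lost and 19 changed sign. The 6 genes most often called were Hspa8, Hspa9, Hsp90aa1, Stip1, Cct3 and Dnajc7.

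**Figure D1:**
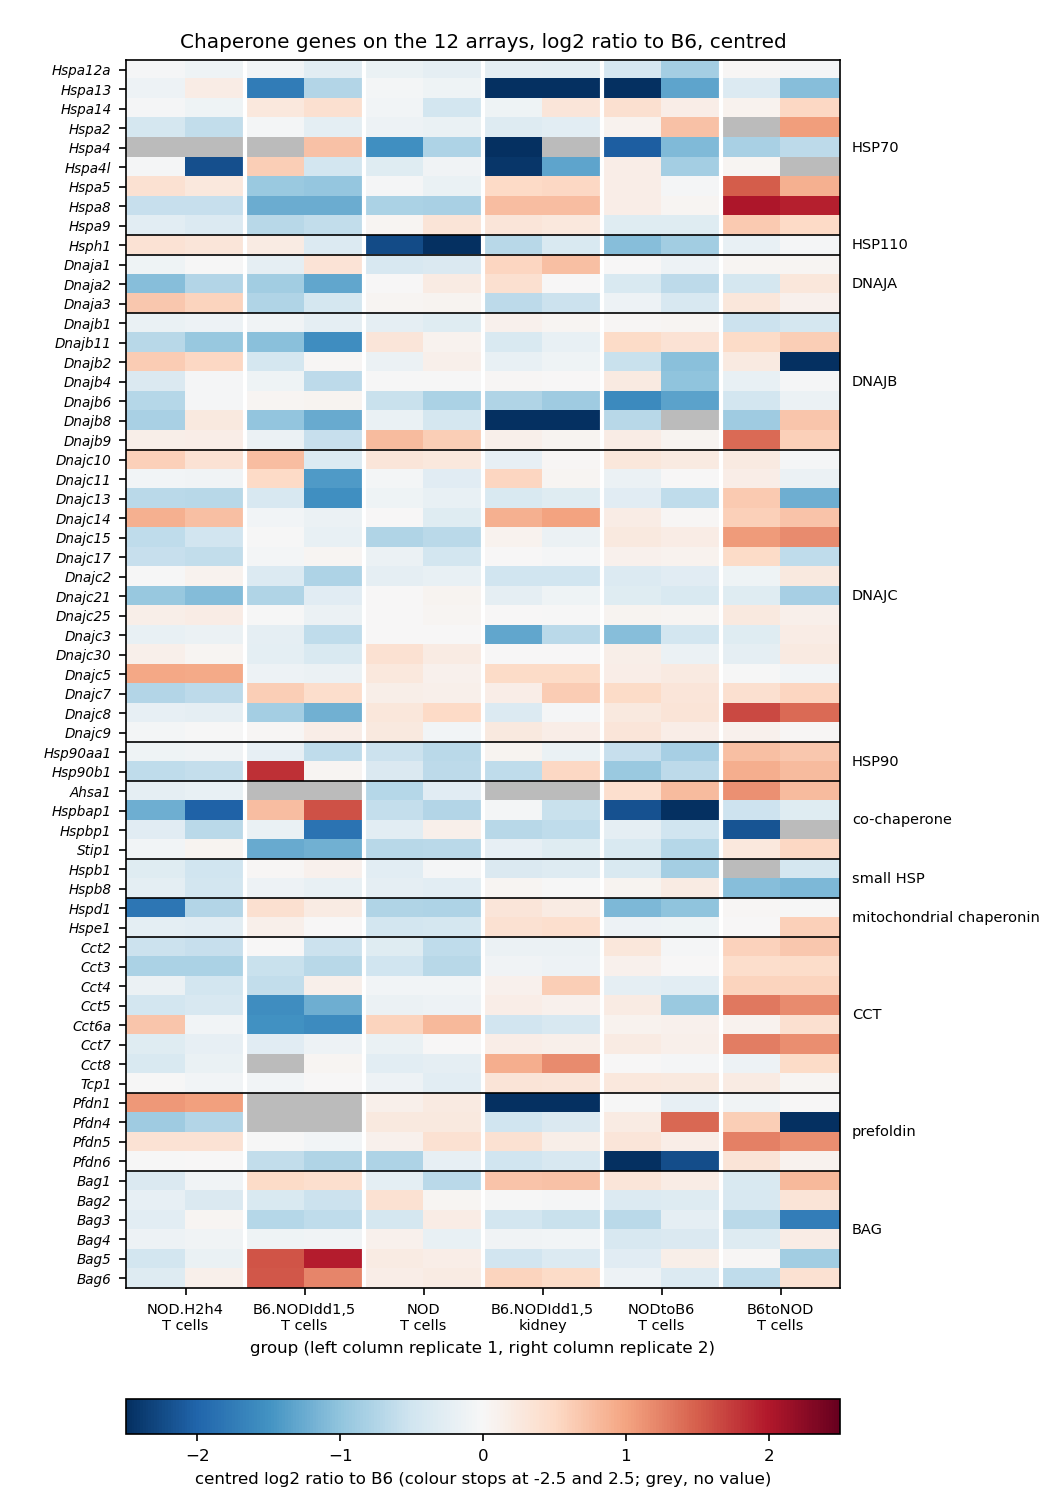
Centred log2 ratio to B6 of the 63 chaperone genes (rows, by family) on the 12 arrays (columns, 2 per group). Red is higher and blue lower than the middle of the array, and grey marks a missing value; Hspa8, Cct5 and Cct7 are red in B6toNOD T cells, and Hsph1 is the darkest row of the NOD columns.

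In NOD T cells 2 of 63 rose and 8 fell (3.17% and 12.7%), against 9.85% and 2.52% of all 15931 features. Among the genes with a symbol 5.63% rose and 2.35% fell. The chaperone genes that fell were Hsph1, Hspa8, Hsp90aa1, Stip1, Dnajc15, Dnajb6, Dnajb1 and Cct3, and those that rose were Dnajb9 and Cct6a. The median chaperone gene stood at -0.15 log2, against -0.01 for all features. The total of 10 came to 4 without the first NOD array, 2 without the second and 6 without either kidney array, which share the fit's estimate of the spread; Hspa8 and Hsph1 passed under every alternative. As deposited it was 5, with Cct6a, Dnajb1, Dnajb6, Dnajb9 and Hsp90aa1 lost, and with the arrays scaled to the same spread it was 26, against 14 in B6toNOD in that setting.

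In NOD.H2h4 T cells 5 of 62 rose and 15 fell (8.06% and 24.2%), against 24.2% and 15.5% of all features. Among the genes with a symbol the shares were 15.6% and 18.7%. The largest falls were those of Hspbap1, Hspd1, Dnajc21, Dnaja2 and Dnajb11, and those that rose were Pfdn1, Dnajc5, Dnajc14, Dnaja3 and Pfdn5. As deposited, without centring, 0 rose and 51 fell, Dnaja3 and Pfdn5 changed sign, and the calls of Dnajc5, Dnajc14 and Pfdn1 were lost. The total was 20, and without the first NOD.H2h4 array it was 13. Dnajb11, Cct3, Hspa8, Dnajc7, Dnajc15, Dnajc21, Hspbap1 and Hspd1 passed under every alternative. The separate probes of Hspd1 and of Dnajc7 stood on both sides of B6 there, as given below.

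In congenic T cells 4 of 58 rose and 16 fell (6.9% and 27.6%), against 14.9% and 16.1% of all features. Genes with a symbol rose in 11.1% and fell in 18.4%. Bag5, Bag6, Hspbap1 and Dnajc7 rose. Cct6a, Cct5, Dnajb11, Hspa8, Hspa13 and Stip1 fell most. The kidney of the same strain divided more evenly, with 10 of 61 higher and 9 lower (16.4% and 14.8%), against 22.6% and 11.3% of all features. Both shares were near those of the genes with a symbol, 14.3% and 12.2%. Pfdn1, Hspa13 and Dnajb8, each on 1 probe, fell most in kidney, and Cct8, Dnajc14 and Hspa8 rose most. The kidney total of 19 came to 9 without the first kidney array and 10 without the second, and as deposited 2 rose and 30 fell.

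In NODtoB6 T cells 3 of 62 rose and 13 fell (4.84% and 21.0%), against 14.1% and 13.4% of all features. Genes with a symbol rose in 13.1% and fell in 12.7%. In B6toNOD T cells 19 of 59 rose and 4 fell (32.2% and 6.78%), against 28.7% and 23.2% of all features and 26.5% and 21.8% of genes with a symbol. The share that rose in B6toNOD was thus near that of all features. The NODtoB6 total of 16 came to 8 without the second NODtoB6 array. As deposited 5 rose and 36 fell in B6toNOD, so Hsp90aa1, Hspa9, Stip1, Cct2, Cct3, Cct4, Dnajb11, Dnajc7, Dnajc14 and Dnajc25 changed sign there, the calls of Ahsa1, Cct5, Dnajb9 and Hspa5 were lost, and Hspa8, Dnajc8, Cct7, Pfdn5 and Dnajc15 still passed as higher. No label gives the direction of these arrays: turned, NODtoB6 would hold 13 higher and 3 lower, and B6toNOD 4 higher and 19 lower.

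**Figure D2:**
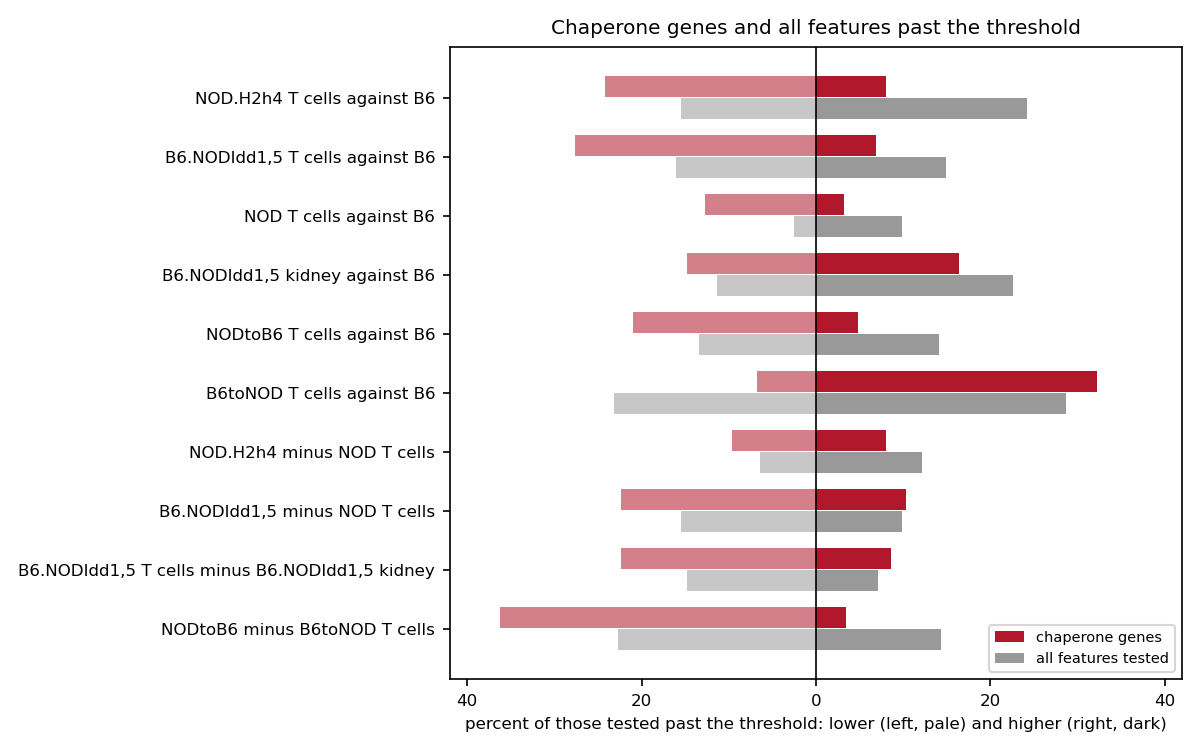
Percent of the chaperone genes tested (red) and of all features tested (grey) that passed as higher (right, dark) or lower (left, pale) in the 6 comparisons with B6 and the 4 differences between groups. The red bar exceeds the grey one on the lower side in every comparison but B6toNOD T cells against B6, where 6.78% of chaperone genes and 23.2% of features were lower.

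Hspa8 encodes HSC70, the constitutive cytosolic HSP70 and one of the most abundant chaperones of lymphocytes. It passed in 5 of the 6 groups. Its values were 2.02 and 1.95 in B6toNOD T cells, 0.77 and 0.77 in congenic kidney, 0.17 and 0.05 in NODtoB6 T cells, -0.57 and -0.57 in NOD.H2h4 T cells, -0.79 and -0.80 in NOD T cells and -1.25 and -1.24 in congenic T cells. The 2 arrays of each group stood close together, and after centring no 2 groups overlapped. Each group mean below is of 2 arrays, and a difference between groups is of 2 such means. The standard errors are limma's, from a spread estimated over all 6 groups. The rise in B6toNOD came to 1.99 ± 0.06 (SE, adjusted p = 1.52e-06), a 3.96-fold difference from B6, and the fall in congenic T cells to -1.25 ± 0.06 (SE, adjusted p = 1.8e-05). After centring NOD and NOD.H2h4 T cells fell by less, at -0.80 ± 0.063 (SE, adjusted p = 5.07e-04) and -0.57 ± 0.062 (SE, adjusted p = 3.45e-04), and NODtoB6 did not pass at 0.11 ± 0.062 (SE, adjusted p = 0.231). As deposited the order was another: NOD.H2h4 T cells stood at -1.43 and -1.32 (mean -1.37), congenic T cells at -1.46 and -1.39, which overlap, and NOD T cells at -0.80 and -1.09 (mean -0.95). All 4 Hspa8 probes passed as higher in B6toNOD and in kidney, and all 4 as lower in NOD and in congenic T cells. On the B6toNOD arrays 1 of these probes lay in a raised run, described below, with neighbours at 1.013 and 1.13. Another had neighbours at 0.945 and 0.883, just under the limit for a run. Without the first of these the rise in B6toNOD was 1.84 (adjusted p = 1.46e-06). The kidney rise of 0.77 ± 0.062 (SE, adjusted p = 2.55e-04) did not pass as deposited (adjusted p = 0.0832). cDNA probes of related HSP70 genes can share signal, so part of an Hspa8 value can come from its relatives.

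Hspa5 (BiP), which binds nascent proteins in the ER, and Hspa9 (mortalin), the mitochondrial HSP70 that pulls proteins through the inner membrane, passed on the same side as Hspa8 in B6toNOD T cells, congenic kidney and congenic T cells; as deposited, the B6toNOD and kidney calls of Hspa5 were lost and those of Hspa9 changed sign. Hspa5 stood at 1.51 and 0.90 in B6toNOD T cells, 0.49 and 0.52 in kidney and -0.94 and -0.97 in congenic T cells. It rose by 1.20 ± 0.13 (SE, adjusted p = 2.28e-04) in B6toNOD and 0.51 ± 0.13 (SE, adjusted p = 0.0233) in kidney, and in congenic T cells the value was -0.95 ± 0.13 (SE, adjusted p = 0.00168). Its arrays in B6toNOD were farther apart than those of Hspa8, although all 3 probes passed. In NOD.H2h4 T cells it stood at 0.38 and 0.26, in NOD T cells at -0.04 and -0.17 and in NODtoB6 T cells at 0.17 and -0.02, and did not pass in these 3. The kidney call of Hspa5 was also lost without either kidney array.

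Hspa9 stood at 0.65 and 0.49 in B6toNOD, 0.29 and 0.27 in kidney, 0.05 and 0.32 in NOD, -0.30 and -0.31 in NODtoB6, -0.27 and -0.35 in NOD.H2h4 and -0.69 and -0.61 in congenic T cells. It passed everywhere but in NOD T cells, on a single probe. The largest of these, -0.65 ± 0.082 (SE, adjusted p = 0.00106) in congenic T cells, was the one that held under every alternative. The rises in B6toNOD (0.57) and kidney (0.28) turned negative as deposited. In B6toNOD the neighbours of the probe stood at 0.664 and 0.687, so Hspa9 did not stand above them. Its neighbours stood at -0.118 and -0.188 in kidney and -0.28 and -0.329 in congenic T cells.

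Of the HSP70 genes tested, 4 of 8 fell in congenic T cells and 4 of 9 in NODtoB6 T cells, with none higher, while 3 of 7 rose in B6toNOD with none lower. Of all features 16.1% fell in congenic T cells, 13.4% fell in NODtoB6 and 28.7% rose in B6toNOD. As deposited 1 of the 7 was higher and 4 were lower in B6toNOD. Hspa13 encodes an HSP70-like protein of microsomes that lacks the substrate-binding domain. It stood at -3.20 and -3.79 in kidney and -2.48 and -1.31 in NODtoB6 T cells, and at -1.75 and -0.73 in congenic T cells. It passed in all 3 on 1 probe, in kidney at -3.49 ± 0.34 (SE, adjusted p = 4.1e-04), a call that held under every alternative, whereas the NODtoB6 call was lost without the first array of that group and the congenic T cell call without the first congenic array or either NOD array. Hspa4, a cytosolic exchange factor related to HSP110, could be tested in 3 groups and fell in NODtoB6 (-1.58, adjusted p = 0.0255). Its relative Hspa4l fell in kidney at -1.88 and lost that call without either kidney array. Hspa2, the testis HSP70, fell by 0.53 in NOD.H2h4 T cells, and Hspa12a, a distant HSP70 relative, by 0.63 in NODtoB6. Hspa14, a ribosome-associated HSP70, stayed between -0.45 and 0.51 on all arrays.

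Hsph1 (HSP110), the exchange factor that resets HSP70 and a strongly heat-inducible gene, had the largest chaperone change of NOD T cells. It stood at -2.24 and -2.56 in NOD T cells, 0.36 and 0.29 in NOD.H2h4 T cells and 0.20 and -0.33 in congenic T cells. NOD was therefore below both related strains on every array. The fall in NOD was -2.40 ± 0.15 (SE, adjusted p = 1.22e-04), a 5.27-fold difference from B6, and both probes passed, one at -2.48 and -3.35 and the other at -1.99 and -1.77. NODtoB6 T cells, whose marrow was NOD, stood at -1.06 and -0.87 and fell by 0.96 ± 0.15 (SE, adjusted p = 0.00391), but there the probes disagreed: one read -2.40 and -2.0 and the other 0.29 and 0.26. B6toNOD T cells stood at -0.19 and -0.03 and did not pass. Kidney fell to -0.69 and -0.39, where neither probe passed alone and the call was lost without either kidney array.

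**Figure D3:**
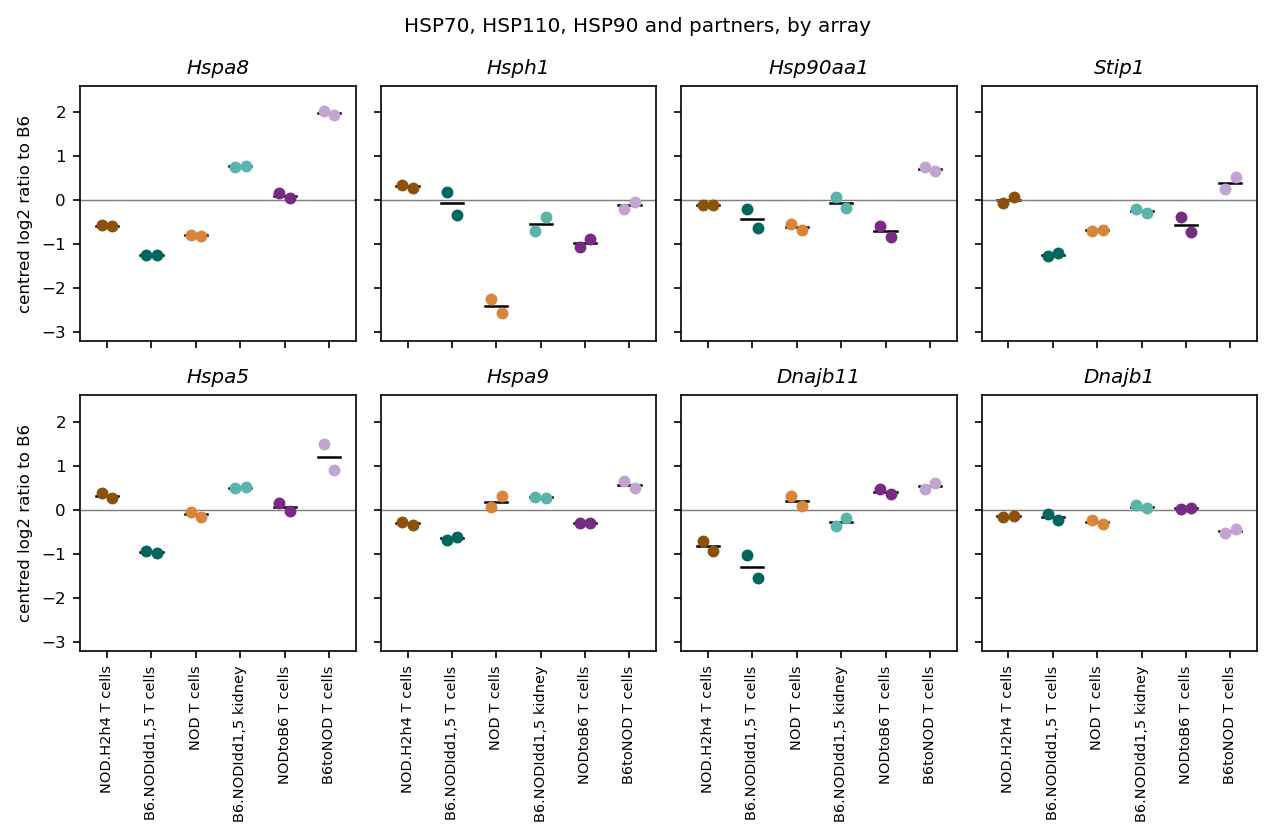
Centred log2 ratio to B6 (vertical axis) of 8 chaperone genes in the 6 groups; each point is an array, the bar is the mean of the 2 arrays, and the grey line at 0 is the middle of the array. Hspa8 after centring is highest in B6toNOD T cells and lowest in congenic T cells, and Hsph1 lies below -2 in NOD T cells alone.

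Hsp90aa1, the inducible cytosolic HSP90 that holds kinases and receptors ready, was measured by 7 probes. It stood at 0.75 and 0.67 in B6toNOD T cells, against -0.58 and -0.82 in NODtoB6, -0.54 and -0.68 in NOD and -0.20 and -0.64 in congenic T cells. The first rose (0.71 ± 0.12, SE, adjusted p = 0.00194), with 4 of 7 probes past the threshold, and the other 3 fell, NODtoB6 at -0.70 ± 0.12 (SE, adjusted p = 0.0062), NOD at -0.61 ± 0.12 (SE, adjusted p = 0.0188) and congenic T cells at -0.42 ± 0.12 (SE, adjusted p = 0.0341). NOD.H2h4 T cells (-0.11 and -0.09) and kidney (0.07 and -0.17) did not pass. In NODtoB6 1 probe read -2.21 and -2.97 while the other 5 with values lay between -0.45 and -0.10. That probe lies in a run of low or missing neighbours, described below, and without it and 1 other probe the NODtoB6 value was -0.32 (adjusted p = 0.0248). The B6toNOD value became 0.43 in the same setting and -0.05 as deposited. Hsp90b1 (GRP94), its ER counterpart, passed in no group; in NODtoB6 T cells 1 of its probes read -1.94 and -1.45 and the other 0.10 and 0.14.

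Stip1, the adaptor between HSP70 and HSP90, fell with Hsp90aa1 in the same 3 groups. It stood at -1.27 and -1.20 in congenic T cells, -0.69 and -0.67 in NOD T cells and -0.38 and -0.72 in NODtoB6 T cells. The fall in congenic T cells, -1.23 ± 0.10 (SE, adjusted p = 1.64e-04), held under every alternative; those in NOD (-0.68) and NODtoB6 (-0.55) were lost without an array of their own group. B6toNOD, at 0.26 and 0.53, rose by 0.39, which turned to -0.37 as deposited, and NOD.H2h4 (-0.07 and 0.07) and kidney (-0.21 and -0.30) did not pass. Ahsa1, which speeds the ATPase of HSP90, rose in B6toNOD (0.96 ± 0.16, SE, adjusted p = 0.00415) and NODtoB6 (0.61 ± 0.16, SE, adjusted p = 0.0392) and had no value in the congenic strain. As deposited both calls were lost, at 0.20 (adjusted p = 0.384) and 0.38 (adjusted p = 0.218). Of the partners of HSP90 and HSP70 outside the families, 5 of 16 rose and 2 fell in B6toNOD, 2 rose and 4 fell in congenic T cells, and 1 rose and 1 fell in NOD. Of all features 28.7% rose and 23.2% fell in B6toNOD, and as deposited 1 of the 16 partners was higher and 11 were lower there. In congenic T cells 14.9% of all features rose and 16.1% fell, and in NOD 9.85% and 2.52%. As deposited 1 partner was higher and 4 were lower in congenic T cells, and 0 passed in NOD. Fkbp5, the immunophilin that binds HSP90 in steroid receptor complexes, stood at 0.72 in B6toNOD and -1.22 in congenic T cells, past the threshold on opposite sides.

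Small heat shock proteins hold unfolding proteins in solution without ATP. Hspb1 (HSP25) fell in NODtoB6 at -0.37 and -0.84 (-0.61, adjusted p = 0.0164) and in NOD.H2h4 T cells at -0.30 and -0.50, and the first call was lost without the second NODtoB6 array and the other without any 1 of 8 arrays. Hspb8 stood at -1.07 and -1.12 in B6toNOD T cells and at 0.07 and 0.21 in NODtoB6, a fall of 1.09 ± 0.074 (SE, adjusted p = 2.19e-05) in B6toNOD. Its 2 probes disagreed there. The lower one lay in a shifted run on the second NOD.H2h4 array, while its neighbours in B6toNOD stood at -0.079 and -0.208. With that probe left out on all arrays the B6toNOD value was 0.09 (adjusted p = 0.543). The fall of Hspb8 thus rested on 1 probe.

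The mitochondrial chaperonin folds proteins that enter the matrix. Hspd1 (HSP60) fell in NOD.H2h4 T cells, at -1.81 and -0.72, and in NODtoB6 T cells, at -1.13 and -1.01. Its 3 probes did not agree: in NOD.H2h4 they read -5.78 and -2.47, -0.27 and -0.31, and 0.62 and 0.61. In NODtoB6 they read -0.59 and -0.89, -0.03 and -0.16, and -2.76 and -1.97, and without the last the value was -0.42 (adjusted p = 0.368). Hspe1 (HSP10), read from the same promoter region, passed in kidney alone (0.38 and 0.42, 0.40, adjusted p = 0.0433) and turned to -0.06 as deposited. With the probe in a shifted run of the first B6toNOD array left out, Hspe1 passed as higher in B6toNOD at 0.90 (adjusted p = 3.2e-05). In that setting it passed as lower in NODtoB6 at -0.30 (adjusted p = 0.0188) and in NOD T cells at -0.27 (adjusted p = 0.0465).

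DNAJ proteins bring clients to HSP70 and set off its ATPase. Of the DNAJA group, which also binds clients, Dnaja1 rose in kidney (0.55 and 0.75, 0.65), Dnaja2 fell in congenic (-0.87 and -1.31) and NOD.H2h4 T cells (-1.06 and -0.72), and the mitochondrial Dnaja3 fell in congenic T cells and kidney. Dnaja3 was higher in NOD.H2h4 at 0.67 and 0.56, which became -0.19 as deposited. Each of the other 5 calls was lost without 1 array of its group, the first for Dnaja2 in NOD.H2h4 and for Dnaja3 and the second for Dnaja1 and for Dnaja2 in congenic T cells. The Dnaja1 call was also lost as deposited.

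Dnajb1 (HSP40), a heat-inducible partner of Hspa8, went the other way from Hspa8 in B6toNOD T cells. It stood at -0.54 and -0.44 there and fell by 0.49 ± 0.066 (SE, adjusted p = 6.02e-04), or by 1.25 as deposited. Of its 3 probes, 1 stood on the other side there, at 0.41 and 0.30. The other 5 groups lay between -0.31 and 0.10. Dnajb6 stood at -1.60 and -1.35 in NODtoB6, where 1 of 2 probes passed, at -0.75 and -0.89 in kidney and at -0.56 and -0.80 in NOD T cells, lower in all 3. Dnajb8, a testis DNAJ protein, read -2.90 and -3.76 in kidney on its 1 probe (-3.33 ± 0.42, SE, adjusted p = 0.00167).

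The ER members of the DNAJ family split between the groups. Dnajb11 (ERdj3), a BiP partner that binds unfolded chains, stood at -1.04 and -1.54 in congenic T cells and -0.70 and -0.94 in NOD.H2h4 T cells, against 0.47 and 0.61 in B6toNOD. The falls were -1.29 ± 0.13 (SE, adjusted p = 4.34e-04) and -0.82 ± 0.14 (SE, adjusted p = 0.00232) and held under every alternative; the rise of 0.54 in B6toNOD turned negative as deposited. Dnajb9 (ERdj4), which represses IRE1 through BiP, rose in B6toNOD (1.41 and 0.59, 1.0) and NOD T cells (0.78 and 0.61, 0.70). Both calls were lost as deposited, at 0.24 (adjusted p = 0.39) and 0.55 (adjusted p = 0.299), and in B6toNOD 1 probe read 3.29 and 0.91 and the other -0.47 and 0.26. Dnajc3 (P58IPK), an inhibitor of the stress kinase PERK, fell in kidney (-1.31 and -0.67) and NODtoB6 (-1.07 and -0.47). Its 4 probes split in NODtoB6, with 2 below 0 and 2 above. Of these probes 2 lay in shifted runs in B6toNOD, but their neighbours in kidney stood between -0.023 and 0.117. With these 2 left out on all arrays the kidney call was lost, at -0.86 (adjusted p = 0.0646).

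Of the ER members tested, 5 of the 9 rose in B6toNOD and 0 fell, with a median of 0.54, while in congenic T cells 0 rose and 3 fell, against 28.7% of all features higher in B6toNOD and 16.1% lower in congenic T cells. As deposited 0 of the 9 rose in B6toNOD and 4 fell, with a median of -0.22. Of the ER folding genes outside the families 7 of 13 were higher and 2 lower in B6toNOD, against 28.7% and 23.2% of all features, and as deposited 3 were higher and 4 lower. The disulfide isomerases Pdia6 (1.56), Pdia3 (1.55) and P4hb (1.13) rose there, and Xbp1 (-1.21) and Atf6 (-0.80), both transcription factors of the unfolded protein response, fell. In NOD.H2h4 T cells 1 of 13 rose and 5 fell, with Pdia6 at -0.83 and P4hb at -1.0. There 24.2% of all features rose and 15.5% fell, and as deposited 0 of the 13 rose and 11 fell. None of these ER folding genes passed in NOD T cells.

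Among the 15 DNAJC genes, which share little but the J domain, Dnajc8 of the spliceosome had the widest spread of those with calls on both sides. It stood at 1.66 and 1.42 in B6toNOD T cells, rising by 1.54 ± 0.12 (SE, adjusted p = 3.43e-05), and at -0.86 and -1.20 in congenic T cells, falling by 1.03 ± 0.12 (SE, adjusted p = 6.52e-04). Both calls held under every alternative. The 1 probe of Dnajc8 had neighbours shifted to the same sides, under the limit for a run. They stood at 0.706 and 0.714 in B6toNOD and -0.56 and -0.309 in congenic T cells. Dnajc15, a regulator of mitochondrial import and respiration that T cells use to set their metabolism, rose in B6toNOD (1.06 and 1.19) and fell in NOD (-0.75 and -0.67) and NOD.H2h4 (-0.63 and -0.49).

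Dnajc21, a factor of ribosome maturation, fell most in NOD.H2h4 T cells (-0.95 and -1.08, -1.02 ± 0.15, SE, adjusted p = 0.0012). Dnajc5, the cysteine string protein of secretory vesicles, and Dnajc14, which handles receptors at the ER, rose there. Dnajc5 read 0.96 and 0.94 and Dnajc14 read 0.88 and 0.75, and both missed the threshold as deposited, at 0.15 and 0.01. Dnajc14 rose in kidney as well (0.88 and 1.01). Dnajc7, an HSP70 and HSP90 co-chaperone, passed in 5 groups but its 2 probes disagreed in NOD.H2h4, at 0.60 and 0.49 against -2.06 and -1.82.

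The CCT ring is built of 8 different subunits in equal number, all of them measured. In B6toNOD T cells 5 of the 8 rose and 0 fell, with a median of 0.51, against 28.7% of all features higher. As deposited the median was -0.25, with 1 higher and 3 lower. Cct5 stood at 1.32 and 1.19 and Cct7 at 1.28 and 1.16, and Cct2, Cct4 and Cct3 rose by 0.63, 0.56 and 0.46, values that turned negative as deposited, where the call of Cct5 was lost (0.49, adjusted p = 0.087). Cct6a, Cct8 and Tcp1 did not pass, at 0.25, 0.18 and 0.12. Cct7 passed with all 4 of its probes (1.22 ± 0.077, SE, adjusted p = 1.65e-05).

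In congenic T cells 3 of 7 subunits tested fell and 0 rose, against 16.1% and 14.9% of all features. They were Cct6a at -1.51 and -1.56, Cct5 at -1.55 and -1.23 and Cct3 at -0.56 and -0.69, with Cct6a at -1.54 ± 0.17 (SE, adjusted p = 5.93e-04) and Cct5 at -1.39 ± 0.23 (SE, adjusted p = 0.00327). The other 4 lay between -0.27 and -0.02. In NOD.H2h4 T cells Cct3 (-0.80), Cct2 (-0.56) and Cct7 (-0.25) fell. NOD T cells held 1 subunit lower, Cct3 (-0.60), and 1 higher, Cct6a (0.55 and 0.81), and the Cct6a call was lost without any of 8 arrays in turn. In kidney Cct8 (0.91 and 1.18) and Tcp1 (0.32 and 0.30) rose, and Tcp1 turned to -0.15 as deposited. The 8 subunits of the ring therefore did not all pass on 1 side in any group.

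**Figure D4:**
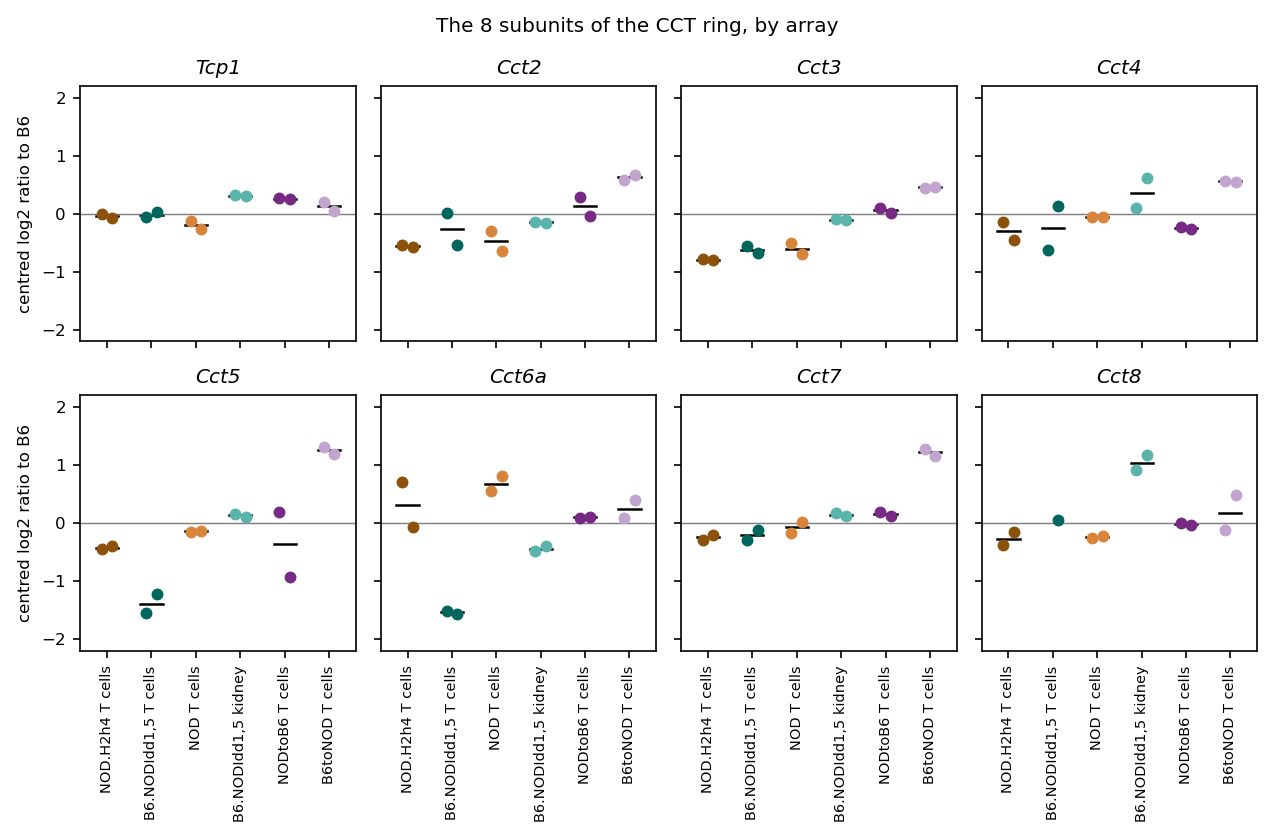
Centred log2 ratio to B6 (vertical axis) of the 8 CCT subunits in the 6 groups; each point is an array and each bar the mean of 2 arrays. Cct5 and Cct7 stand above 1 in B6toNOD T cells, Cct5 and Cct6a stand below -1 in congenic T cells, and Tcp1 lies between -0.27 and 0.32 on all arrays.

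Prefoldin passes unfolded actin and tubulin to CCT. Pfdn5 rose in B6toNOD (1.26 and 1.15, 1.21 ± 0.092, SE, adjusted p = 3.49e-05) and in NOD.H2h4 T cells (0.36 and 0.36), where it turned to -0.44 as deposited. Pfdn1 read -3.15 and -4.07 in kidney and 1.09 and 1.03 in NOD.H2h4 T cells on its 1 probe, and fell in the first (-3.61 ± 0.20, SE, adjusted p = 2.17e-04) and rose in the second. The neighbours of that Pfdn1 probe stood at 0.687 and 0.742 in NOD.H2h4 T cells. In kidney they stood at -0.443 and -0.312, with values for only 14 and 12 of the 20. Pfdn6, a gene of the MHC region on chromosome 17, stood at -2.92 and -2.22 in NODtoB6, but 1 probe read -5.14 and -4.38 and the other -0.69 and -0.07. With the first left out, the NODtoB6 value was -0.38 (adjusted p = 0.0738), and the congenic T cell fall of -0.68 became -0.22 (adjusted p = 0.268). The neighbours of that probe were low in NODtoB6 but stood at -0.023 and -0.065 in congenic T cells.

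BAG proteins release clients from HSP70. In congenic T cells Bag5 stood at 1.57 and 1.96 and Bag6 at 1.56 and 1.22, and both rose, by 1.76 ± 0.21 (SE, adjusted p = 8.53e-04) and 1.39 ± 0.22 (SE, adjusted p = 0.0031). Each has 1 probe. Bag6, which guides tail-anchored membrane proteins, lies in the MHC class III region on chromosome 17, where Idd1 was mapped; in kidney of the same strain it stood at 0.56 and 0.48 and in NOD T cells at 0.17 and 0.20, without passing. Bag5 stood at -0.48 and -0.33 in kidney. Bag3, a heat-inducible partner of the small HSPs, fell in B6toNOD T cells (-0.67 and -1.73, -1.20), a call lost without the second of its arrays. Bag1, Bag2 and Bag4 passed in no group.

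Hspbap1, named for its binding to Hspb1, gave some of the largest values in both directions. It stood at 0.76 and 1.59 in congenic T cells, -1.23 and -2.03 in NOD.H2h4 T cells and -2.18 and -2.49 in NODtoB6 T cells. It rose in the first and fell in the other 2 (1.18, -1.63 and -2.33), on 1 of 2 probes each time. The rise was lost without the second congenic T cell array. The other probe read -0.05 and -0.12 in congenic T cells. Hspbp1, an exchange factor of HSP70, passed in no group.

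The members induced by heat did not rise together in any group. Counted here as heat-inducible were Hsph1, Dnajb1, Dnaja1, Hspb1, Hsp90aa1, Hspa8, Hspd1, Hspe1, Bag3, Stip1, Ahsa1 and Hspa4l. Hspa8, called constitutive above, was among those that rose in B6toNOD and those that fell in NOD. Of the heat-inducible members, 4 of 10 rose and 2 fell in B6toNOD T cells, against 28.7% and 23.2% of all features. In NOD T cells 0 rose and 5 of 12 fell, against 9.85% and 2.52%. In NODtoB6 1 rose and 5 of 12 fell, against 14.1% and 13.4%. As deposited the counts were 1 higher and 7 lower in B6toNOD, 0 and 3 in NOD, and 0 and 5 in NODtoB6. Of the 4 genes whose windows hold a 3-unit heat shock element, Hsph1, Dnajb6, Hspd1 and Hspe1, none rose in T cells of any group, except Hspe1 in B6toNOD once its probe in a shifted run was left out.

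The strains were also set against each other. Between NOD.H2h4 and NOD T cells 5 of 62 genes were higher and 6 lower in NOD.H2h4 (8.06% and 9.68%), against 12.2% and 6.45% of all features. Among the genes with a symbol 7.25% were higher and 7.29% lower. Hsph1 led, at 2.72 ± 0.21 (SE, adjusted p = 8.71e-04), followed by Dnajc14 (0.96), Dnajc5 (0.76), Stip1 (0.68) and Dnaja3 (0.56). Dnajc21, Dnajb11, Dnaja2, Dnajc7, Dnajc8 and Hspa9 were lower in NOD.H2h4. The total of 11 came to 4 without any 1 of the 4 arrays compared, and Hsph1 alone held under every alternative.

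Between congenic and NOD T cells 6 of 58 genes were higher and 13 lower in the congenic strain (10.3% and 22.4%), against 9.9% and 15.5% of all features. Among the genes with a symbol 8.21% were higher and 15.2% lower. Hsph1 was higher by 2.33 ± 0.21 (SE, adjusted p = 3.3e-04), and Hspbap1, Bag5, Bag6, Hspd1 and Dnajc15 were higher too. Cct6a (-2.22), Dnajb11 (-1.49), Dnajc8 (-1.42) and Hspa9 (-0.84) were lower and held under every alternative. The total of 19 came to 9 without the first NOD array and 7 without the second. The lower Hspa8 in the congenic strain (-0.45) was lost as deposited and reversed to 0.07 with the arrays scaled to the same spread.

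Between the 2 marrow transfer groups 2 of 58 genes were higher in NODtoB6 and 21 lower (3.45% and 36.2%), against 14.3% and 22.7% of all features. Among the genes with a symbol 12.7% were higher and 21.2% lower. The median chaperone gene differed by -0.37, against -0.02 for all features. Hspa8 (-1.88 ± 0.084, SE, adjusted p = 3.24e-05), Cct5 (-1.62), Hsp90aa1 (-1.41), Dnajc8 (-1.26) and Cct7 (-1.06) were lower in NODtoB6 under every alternative that kept the direction of the arrays. All 6 Hsp90aa1 probes with values and all 4 probes of Hspa8 and of Cct7 passed on that side. Without the probes in shifted runs, Cct5 came to -0.66 and Hsp90aa1 to -0.75, both still past the threshold. Dnajb1 was higher in NODtoB6 by 0.52. The assumed direction of these 4 arrays bears on all of this: with the NODtoB6 arrays turned, 13 of the 28 chaperone genes that passed were higher and 15 lower in NODtoB6. The differences then were -2.09 for Hspa8, -0.88 for Cct5, -1.83 for Dnajc8 and -1.38 for Cct7, while Hsp90aa1 stood at -0.01 (adjusted p = 0.965) and missed the threshold. With the B6toNOD arrays turned in their place, the same 28 values take the other sign.

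Between congenic T cells and congenic kidney, each set against B6 of its own tissue, 5 of 58 genes were higher in T cells and 13 lower (8.62% and 22.4%), against 7.17% and 14.8% of all features. Hspa8 (-2.02 ± 0.085, SE, adjusted p = 2.03e-05), Hspa5 (-1.46), Stip1 (-0.98), Hspa9 (-0.93) and Dnajc14 (-1.05) were lower and Bag5 (2.17) higher in T cells under every alternative. The total of 18 came to 10 without the first kidney array and 8 without the second.

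How far the probes of 1 gene agree bounds all of these values. In NODtoB6 11 of 31 chaperone genes with several probes had all of them on 1 side of B6, against 22 of 33 in NOD T cells. Part of this followed the order of the probes in the list. On the NODtoB6 arrays some runs of neighbouring probes were low or without values: the median of the 20 neighbours of the low Hsp90aa1 probe was -2.76 and -1.96, that of the low Hspd1 probe -2.17 and -2.91, and that of the low Pfdn6 probe -2.68 and -2.52. These Hspd1 and Hsp90aa1 probes lie close together in the list. On the B6toNOD arrays some runs were raised. The same Hsp90aa1, Hspd1 and Pfdn6 probes had neighbours there at 1.13 and 1.118, 1.156 and 1.005, and 1.035 and 1.137. Over all arrays 13 of the 124 chaperone probes lay in such runs, 6 on the first NODtoB6 array and 8 on the second B6toNOD array. Probes whose neighbours shifted by less stayed in. Probes in such runs on any array were left out on every array, also where their neighbours were not shifted. This gave totals between 11 in NOD T cells and 24 in B6toNOD T cells, none of them over 1.5 times away from the total with all probes.

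**Figure D5:**
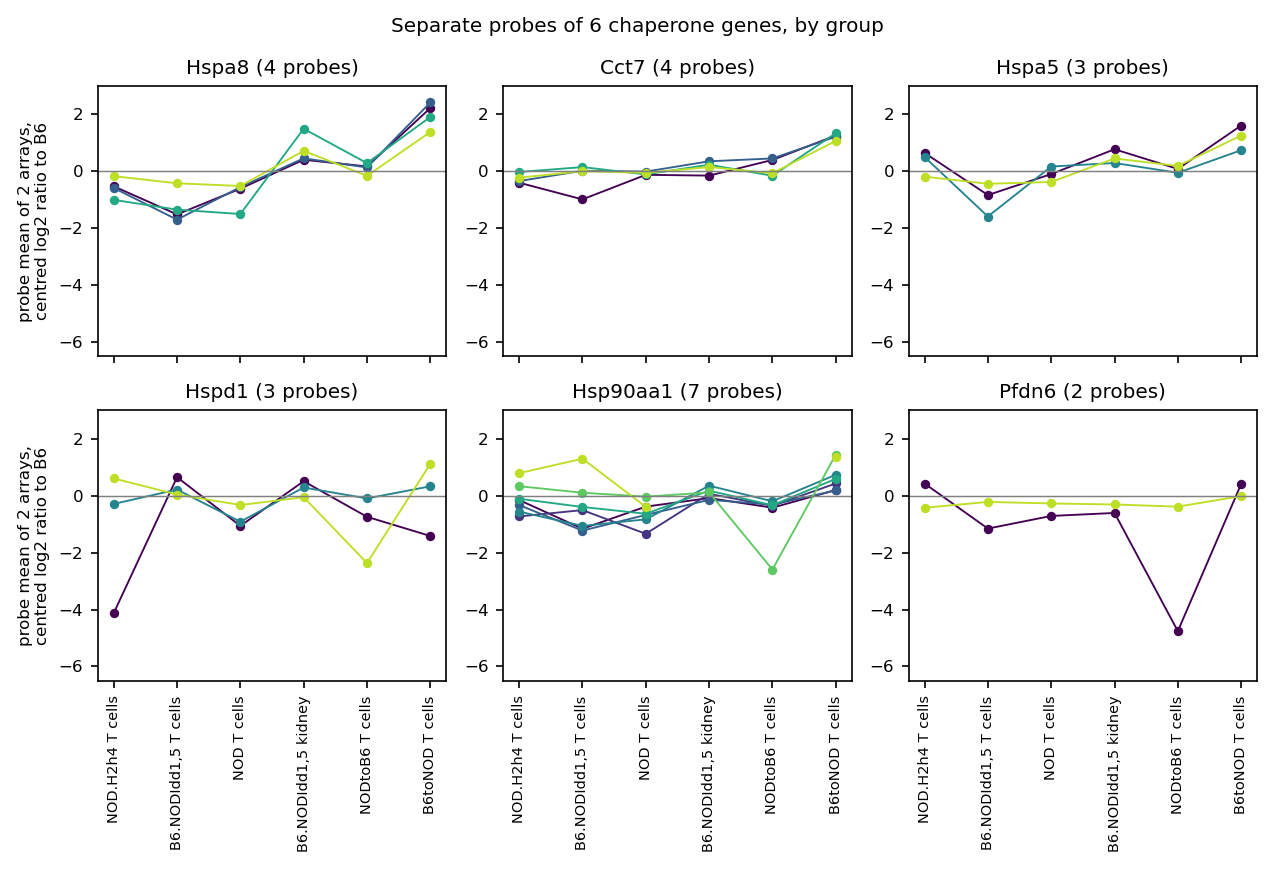
Means of 2 arrays for each probe of 6 chaperone genes (vertical axis, centred log2 ratio to B6; 1 line per probe) in the 6 groups. All probes of Hspa8, Cct7 and Hspa5 stand above 0 in B6toNOD T cells, while 1 probe of Hspd1 in NOD.H2h4 T cells and 1 of Pfdn6 in NODtoB6 T cells lie far below the others of the gene.

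Markers of other cells moved with some of these groups. All 4 myeloid markers tested of 12 listed (S100a9, Lcn2, Lyz2 and Ltf) were higher in B6toNOD, with a median of 4.65, and in NODtoB6, with a median of 2.76; in congenic T cells 3 were lower, with a median of -0.82. Immediate-early genes, which rise within minutes of handling or stimulation, were higher in 8 of 10 cases in B6toNOD and 6 of 10 in NODtoB6. Of all features 28.7% and 14.1% were higher in these groups. As deposited 2 of the 10 were higher and 1 lower in B6toNOD, and 4 higher and 1 lower in NODtoB6. Of 17 T cell markers listed, 4 of 4 tested were lower in congenic T cells (median -1.04) and 3 of 5 in kidney. Of all features 16.1% and 11.3% were lower there. In NOD T cells 2 of 5 T cell markers were higher, and in NOD.H2h4 and in NODtoB6 1 was higher and 1 lower. In B6toNOD 1 of 2 was lower. As deposited 0 T cell markers were higher in any group. Erythroid markers had a median of 1.16 in NOD T cells, where 3 of 7 were higher and 1 lower, against 9.85% and 2.52% of all features. In NODtoB6 5 of 7 erythroid markers were higher, and in congenic T cells 5 of 7 were lower. As deposited these counts were 3 of 7 and 5 of 7. After centring, 14.1% of all features were higher in NODtoB6 and 16.1% were lower in congenic T cells. All 4 myeloid markers were higher in NOD T cells too, with a median of 0.85, and 3 were higher and 1 lower in NOD.H2h4 T cells. As deposited 1 of the 4 was higher in NOD T cells, and 2 were higher and 2 lower in NOD.H2h4 T cells. Kidney markers had a median of 0.66 in kidney, with 2 of 4 higher, and of the B cell markers 2 of 4 were higher in NOD T cells and 2 in B6toNOD, where 1 was lower. Higher among all features were 22.6% in kidney, 9.85% in NOD T cells and 28.7% in B6toNOD, where 23.2% were lower. As deposited 1 of the 4 kidney markers was higher in kidney. Of the B cell markers 0 of 4 then passed in NOD T cells, and 2 were higher and 2 lower in B6toNOD. The part of all these markers in the chaperone values was not tested.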

How the data were processed

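The values are log2 ratios of the sample to its B6 channel, as the authors deposited them in 1 table of 12 arrays and 20736 probes; the red and green channels of the 8 strain arrays are as per the labels. For scanner, background correction, filters and normalization the sources used here state nothing. Cells at a ceiling ratio of 100000 (146 cells, 0 of them in chaperone probes) were set to missing. Of the probes, 13033 had 1 symbol, 312 several and 7391 none in the platform annotation, which can be old; probes of a gene were averaged, and unnamed probes were kept singly, giving 16411 features. The average of a gene on an array took only its probes with a value there, so it can rest on unlike probes between groups. Each array was centred on its median.

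Group means over the 12 arrays were fitted with limma 3.58.1 in R 4.3.3 (lmFit, eBayes), with Benjamini-Hochberg adjustment over all features that had a value on every array of the groups compared, and a threshold of 0.05. The steps were tested on simulated data. Each group had 2 arrays, and their number limits the precision. Differences between groups are built from the same fitted means as the comparisons with B6. The chaperone genes and all lists were chosen with earlier results of these data known. Named were the genes past the threshold with the 5 largest values in each direction and both arrays on that side, classical members whatever their value, and the lowest and highest of each family; Bag2, Bag4, Dnajb2, Dnajb4, Dnajc2, Dnajc9, Dnajc10, Dnajc11, Dnajc17, Dnajc25, Dnajc30, Hspa2, Hspa12a, Hspa14, Hspbp1 and Pfdn4 were named after their values were seen. Alternatives were the values as deposited, arrays scaled to the same spread, a running median over 501 probes subtracted, the median of a gene's probes, filters on missing values, the replicate number as a block, each array left out, and the NODtoB6 arrays turned. Added after the data were seen were fitting each probe alone, turning the B6toNOD arrays, and leaving out probes in shifted runs. There the median of the 10 neighbours on each side shifted by over 1 log2 unit, or they mostly lacked values. A probe in such a run on any array was left out on all 12. Promoter windows are RefSeq's, from GRCm38.p6. Related cDNAs can cross-hybridise.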

Additional observations from a re-analysis of the deposited data

Results flagged for a closer look

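In the congenic strain, 18 chaperone genes differed between T cells and kidney in the size or side of their change against B6 of the same tissue, by limma's test of the difference itself. Lower in T cells were Hspa8 (-2.02), Cct5 (-1.53), Hspa5 (-1.46), Dnaja2 (-1.29), Cct6a (-1.09), Dnajc14 (-1.05), Dnajb11 (-1.02), Stip1 (-0.98), Hspa9 (-0.93), Dnajc8 (-0.84), Dnajc5 (-0.60), Cct3 (-0.52) and Tcp1 (-0.33). Higher in T cells were Hspa13 (2.25), Dnajb8 (2.21), Bag5 (2.17), Hspbap1 (1.47) and Dnajb6 (0.87). Values are log2 differences. The Dnajb6 difference rested on unlike probes. A probe that read -1.70 and -2.05 in kidney had no value in congenic T cells. On the probe with values in both, T cells were lower, at 0.05 and 0.06 against 0.20 and 0.27 in kidney. Hspa13 and Dnajb8 each had 1 probe, which was far lower in kidney than in T cells, and Hspa8 and Hspa5 fell in T cells and rose in kidney. The tissue, its B6 partner and the array pair changed together, and their parts cannot be told apart.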

How the results depend on the processing

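The chaperone genes past the threshold numbered 10 in NOD T cells, 20 in NOD.H2h4 T cells, 20 in congenic T cells, 19 in kidney, 16 in NODtoB6, 23 in B6toNOD, 11 in NOD.H2h4 minus NOD, 19 in congenic minus NOD, 23 in NODtoB6 minus B6toNOD and 18 in congenic T cells minus kidney. As deposited, without centring, the numbers became 5 in NOD T cells, 51 in NOD.H2h4 T cells, 32 in kidney, 41 in B6toNOD, 21 in NOD.H2h4 minus NOD, 10 in congenic minus NOD and 13 in NODtoB6 minus B6toNOD. With the arrays scaled to the same spread they were 26 in NOD T cells, 14 in B6toNOD and 30 in congenic minus NOD. Counting only genes whose every probe passed alone gave 5 in NOD T cells, 12 in NOD.H2h4 T cells, 13 in congenic T cells, 10 in kidney, 6 in NODtoB6, 15 in B6toNOD, 12 in NODtoB6 minus B6toNOD and 11 in congenic T cells minus kidney. Other settings moved no count by over 1.5 times, apart from single arrays. With each array left out in turn the counts lay between 2 and 12 in NOD T cells, 13 and 25 in NOD.H2h4 T cells, 17 and 27 in congenic T cells, 9 and 21 in kidney, 8 and 20 in NODtoB6, 20 and 30 in B6toNOD, 4 and 14 in NOD.H2h4 minus NOD, 7 and 23 in congenic minus NOD, 18 and 28 in NODtoB6 minus B6toNOD and 8 and 21 in congenic T cells minus kidney. The replicate number as a block gave 8 in NOD T cells, 17 in NOD.H2h4 T cells, 20 in congenic T cells, 16 in kidney, 14 in NODtoB6, 23 in B6toNOD, 9 in NOD.H2h4 minus NOD, 18 in congenic minus NOD, 21 in NODtoB6 minus B6toNOD and 16 in congenic T cells minus kidney. The difference between the first and second array of a group was also correlated between groups. These correlations lay between -0.036 and 0.022 over 15 pairs of groups. They gave no sign of pairing by number but cannot exclude it. With the NODtoB6 arrays turned 16 genes passed against B6 and 28 in the difference from B6toNOD, and with the B6toNOD arrays turned 23 and 28. As deposited these values changed sign: Cct6a -0.49, Dnaja3 -0.19, Dnajb9 -0.64, Dnajc2 -0.76, Dnajc25 -0.64, Dnajc30 -0.72, Hsph1 -0.48, Pfdn5 -0.44, Pfdn6 -0.80, Stip1 -0.80 in NOD.H2h4 T cells, then Dnajb1 -0.39, Dnajc25 -0.46, Dnajc30 -0.45, Dnajc7 -0.051, Hspa9 -0.18, Hspb8 -0.44, Hspe1 -0.058, Tcp1 -0.15 in kidney, then Cct2 -0.14, Cct3 -0.31, Cct4 -0.20, Cct6a -0.52, Cct8 -0.58, Dnaja1 -0.71, Dnaja3 -0.56, Dnajb11 -0.22, Dnajc10 -0.66, Dnajc14 -0.11, Dnajc2 -0.70, Dnajc25 -0.58, Dnajc7 -0.30, Dnajc9 -0.70, Hsp90aa1 -0.052, Hspa14 -0.46, Hspa9 -0.19, Hspd1 -0.75, Hspe1 -0.46, Pfdn6 -0.56, Stip1 -0.37, Tcp1 -0.64 in B6toNOD, then Dnaja3 -0.095 in NOD.H2h4 minus NOD, then Cct3 0.13, Dnaja3 0.059 in NODtoB6 minus B6toNOD. Without the probes in shifted runs the sign turned for Pfdn6 -0.42 in NOD.H2h4 T cells, then Hspb8 0.093 in B6toNOD, then Hspb8 -0.20, Hspd1 0.13 in NODtoB6 minus B6toNOD. Scaled to the same spread the sign turned for Cct3 0.40, Hspa8 0.073 in congenic minus NOD. With the running median subtracted the sign turned for Stip1 -0.044 in B6toNOD. With the median of the probes the sign turned for Cct4 0.54 in NOD.H2h4 T cells, and Hspd1 0.62 in NOD.H2h4 minus NOD. Without the second B6toNOD array the sign turned for Dnajc17 in B6toNOD (0.48, over single arrays left out -0.63 to 0.48) and Dnajb2 in NODtoB6 minus B6toNOD (-1.03, over single arrays left out -1.03 to 2.64). The cause of these changes was not tested. Of the 179 called values, 84 held without each array and 55 under every alternative tried on single genes.

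With 2 arrays in each group, leaving out 1 array ended 95 of the 179 calls. Neither the spread of B6 mice nor the origin of the arrays of a group is in the p-values. The centring decides the side of many small values in NOD.H2h4, kidney and B6toNOD, and the direction of the 4 marrow transfer arrays was assumed. Genes on 1 probe have no second probe to set beside them, and probes in shifted runs of the array carried several of the largest values.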
